A study of Danio rerio with 28 samples.

Results

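The transcription factor genes foxq1a, foxq1b, foxf2a, sox9a and sox9b, all known from the developing head skeleton, were followed across every exposure group of a zebrafish toxicity experiment. They were chosen by name and with earlier results of these data known, as 5 of the 38318 genes of the deposited count table. All 5 had enough counts to be among the 25393 genes tested. The gene lists used below were also chosen with those results known. The larvae were zebrafish of the AB WT strain, and exposure ran between 1 and 5 days of age. Polyadenylated RNA was sequenced from whole larvae, so the counts average over all organs. Each of 7 groups had 4 libraries. One group was the control, 3 groups received cadmium (Cd), a toxic metal, with doses of 2.4, 12 and 24 ug/L, and 3 received PCB126, a dioxin-like polychlorinated biphenyl, with doses of 0.08, 0.4 and 0.8 nM. The labels name no vehicle for PCB126, the control libraries carry a Cd prefix in their library names, and how many larvae or clutches went into a library is not given in the sources used here. A difference between PCB126 groups and control therefore cannot be told apart from a difference between the 2 exposure series, and the libraries' spread, which the p-values rest on, may be technical.

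Forkhead (Fox) proteins bind DNA through a winged-helix domain, and Sox proteins through an HMG box. In vertebrates, Sox9 is the main transcriptional activator of cartilage matrix genes, and zebrafish carry duplicate copies: sox9a is needed for cartilage of the jaw and pectoral fin, and sox9b for cranial neural crest and its derivatives. FoxQ1 and FoxF2 genes lie next to each other in vertebrate genomes, FoxF2 acting in neural crest mesenchyme and in mural cells of brain vessels. PCB126 binds the aryl hydrocarbon receptor (AhR), a ligand-activated transcription factor, and in zebrafish embryos dioxin is known to induce foxq1b in the jaw region and to lower sox9b.

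The genes are protein-coding and sit at 4 places in the GRCz11 assembly, from the coordinates deposited with the counts. The gene foxq1a (ENSDARG00000030896) lies at chr2:720779-722170 on the minus strand, and foxf2a (ENSDARG00000017195) at chr2:713080-716426 on the same strand, with 4352 bases between them. The gene foxq1b (ENSDARG00000055395) lies at chr20:26683933-26685395 on the plus strand. The gene sox9a (ENSDARG00000003293) lies at chr12:1947593-1951284 and sox9b (ENSDARG00000043923) at chr3:62521041-62527696, both on the minus strand. Whether reads were counted by strand is not given in the sources used here, so reads of an antisense transcript cannot be told apart from those of the gene itself.

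Libraries held 11893345 to 20770004 counts. Of the 28, replicate 4 of the control and replicate 3 of Cd 2.4 ug/L were divergent: their TMM scaling factors were 0.646 and 0.687 against 0.993 to 1.08 in the other 26 libraries, and cytosolic ribosomal protein genes took 11.8% and 12.2% of their counts against 5.49% to 6.43%. Values without these 2 divergent libraries, also called the pair, are given beside results that they change. Of 14 whole-larva markers listed, 11 had enough counts to be tested, while mylpfa did not, and try and hbae1.1 matched no symbol. Those tested included markers of muscle (ckma, 611 to 2519 CPM), photoreceptor (rho, 1723 to 6296 CPM) and liver (fabp10a, 250 to 1098 CPM), while the insulin gene ins ran from 0.114 to 13.7 CPM. Levels are given as CPM, counts scaled by library total and TMM factor. Where genes are compared with each other, levels are the authors' TPM, which divide by gene length and do not use the TMM factor. Log2 fold changes carry their standard error (SE), and called means an adjusted p under 0.05 in edgeR's quasi-likelihood test over all tested genes.

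All 3 Fox genes were higher and sox9b was lower than in control at PCB126 0.4 and 0.8 nM. With all libraries none of the 5 passed the threshold in a Cd group. At PCB126 0.8 nM, foxq1a was 9.55-fold higher than in control, foxq1b 3.28-fold and foxf2a 2.38-fold, while sox9b was 2.70-fold lower and sox9a did not pass the test. Called were 4 of the 5 genes, 3 higher and 1 lower, where 3.49% of all tested genes were called (8.73% without the divergent libraries). At 0.4 nM the same 4 were called, against 1.00% of all tested genes (3.57% without the divergent libraries). Since the 5 genes were chosen with earlier results known, these shares do not test them as a set. Tested against a 1.5-fold threshold instead of no change, all 4 were still called at 0.8 nM, but of the 4 only foxq1a at 0.4 nM. In this polyadenylated RNA from whole larvae, fewer cells of a type and less RNA per cell cannot be told apart.

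**Figure D1:**
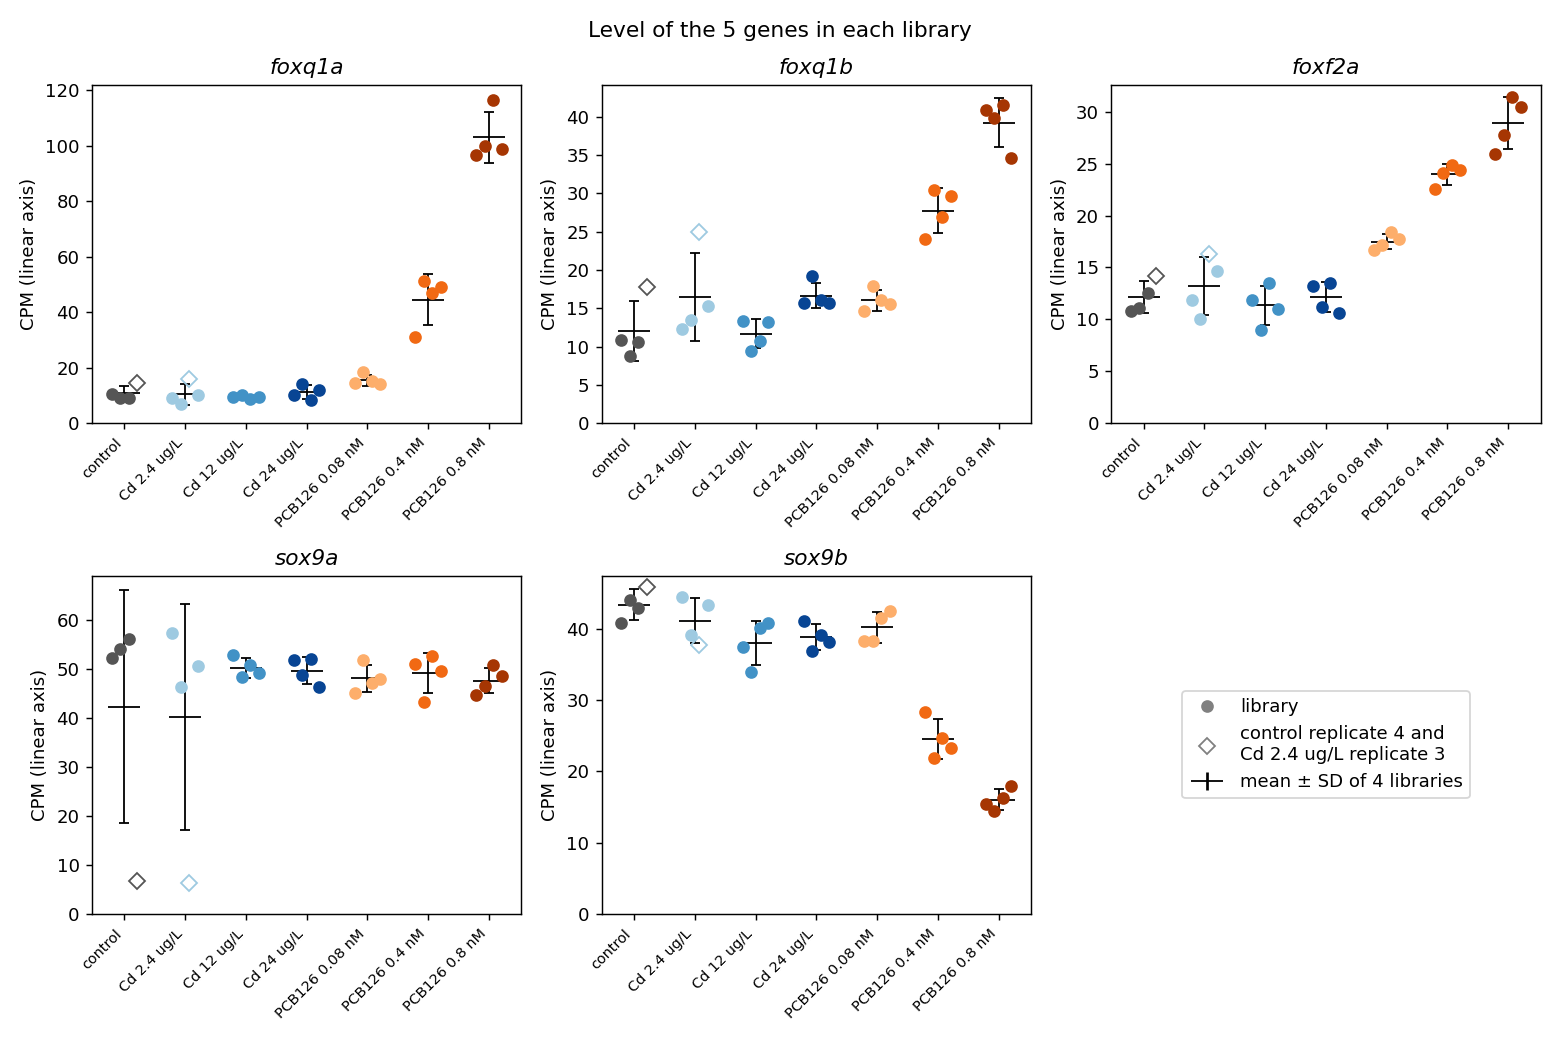
CPM (y axis, linear, from 0) of each gene in every library of the 7 groups (x axis), with the mean and SD of the 4 libraries; open diamonds are the 2 divergent libraries. The 3 Fox genes climb with PCB126 dose to 103, 39.2 and 28.9 CPM on average at 0.8 nM, sox9b falls to 16.1 CPM, and sox9a stays between 43.4 and 57.5 CPM except in the divergent libraries.

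The gene foxq1a, encoding a forkhead factor whose loss in mice gives the satin coat, had the largest response. Its 4 control libraries had 10.4, 9.23, 9.21 and 14.5 CPM, and the 12 Cd libraries ran from 6.95 to 15.8 CPM with a median of 9.75. The PCB126 libraries had 14.5, 18.4, 15.2 and 14.1 CPM at 0.08 nM, then 31.0, 51.3, 46.9 and 49.2 CPM at 0.4 nM, and 96.8, 99.9, 117 and 99.0 CPM at 0.8 nM. All libraries of the 2 higher doses were above every control and Cd library, and the 3 doses did not overlap with each other. The share of all tested genes whose groups separate in such ways is not given, here or below. The log2 fold change against control was 3.26 (SE 0.21, adjusted p = 7.73e-11) at 0.8 nM and 2.05 (SE 0.20, adjusted p = 5.34e-07) at 0.4 nM. Among the 50 tested Fox genes it had the highest fold change at 0.8 nM and the second highest at 0.4 nM. Over all tested genes it ranked 14 by fold change among the 514 called higher at 0.8 nM.

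The paralog foxq1b, which dioxin induces in the zebrafish jaw, rose less steeply. Control libraries had 10.9, 8.81, 10.6 and 17.7 CPM, the last being the divergent one. PCB126 libraries had 14.7, 17.9, 16.1 and 15.5 CPM at 0.08 nM, 24.0, 30.5, 26.9 and 29.6 CPM at 0.4 nM, and 40.9, 39.8, 41.6 and 34.5 CPM at 0.8 nM. The 2 higher doses did not overlap with control or with each other. The log2 fold change was 1.71 (SE 0.19, adjusted p = 2.04e-06) at 0.8 nM and 1.22 (SE 0.19, adjusted p = 0.0006) at 0.4 nM. A model of only the 8 libraries compared did not call the latter (adjusted p = 0.119).

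The gene foxf2a, a FoxF2 copy of mesenchyme and mural cells, showed the smallest rise of the 3. It had 10.8, 11.1, 12.5 and 14.1 CPM in control, 16.7, 17.1, 18.4 and 17.8 CPM at 0.08 nM, 22.5, 24.1, 24.9 and 24.4 CPM at 0.4 nM, and 25.9, 27.7, 31.5 and 30.5 CPM at 0.8 nM. Every PCB126 library, also at the lowest dose, was above all 4 control libraries. The log2 fold change was 1.25 (SE 0.14, adjusted p = 1.03e-06) at 0.8 nM and 0.98 (SE 0.14, adjusted p = 9.69e-05) at 0.4 nM.

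The gene sox9b, needed for cranial neural crest and its derivatives, fell with dose. Control libraries had 40.8, 44.0, 42.9 and 45.9 CPM, and the Cd libraries ran from 34.0 to 44.5 CPM. The 2 divergent libraries, at 45.9 and 37.8 CPM, were the highest and the lowest of their groups by a small margin. PCB126 libraries had 38.3, 38.4, 41.6 and 42.6 CPM at 0.08 nM, 28.3, 21.9, 24.8 and 23.2 CPM at 0.4 nM, and 15.4, 14.5, 16.3 and 18 CPM at 0.8 nM. The 0.4 and 0.8 nM libraries lay below every other library of the series and did not overlap with each other. The log2 fold change was -1.43 (SE 0.09, adjusted p = 4.34e-11) at 0.8 nM and -0.82 (SE 0.09, adjusted p = 1.95e-06) at 0.4 nM. Of the 23 tested Sox genes it had the lowest fold change at both doses. With limma on log2(TPM + 1), sox9b kept its direction at 0.4 nM but was not called (adjusted p = 0.227).

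The gene sox9a, needed for cartilage of the jaw and pectoral fin, did not follow sox9b. It had 52.3, 54.2, 56.2 and 6.75 CPM in control, where the last library is the divergent one with 74 counts. Cd 2.4 ug/L libraries had 57.5, 46.4, 6.34 and 50.7 CPM, again with the divergent library lowest, at 62 counts. The other 26 libraries ran from 43.4 to 57.5 CPM. At PCB126 0.8 nM sox9a had 44.7, 46.6, 50.9 and 48.7 CPM, and its log2 fold change was 0.17 (SE 0.42, adjusted p = 0.869). With the divergent libraries left out the sign turned: the log2 fold change was -0.18 (SE 0.07, adjusted p = 0.127), with all 4 exposed libraries below the remaining 3 controls. In that fit its log2 fold changes in the 6 exposed groups lay between -0.18 and -0.07, and none was called. All 4 libraries of PCB126 0.08 nM and all 4 of Cd 24 ug/L also lay below those 3 controls. These separations all rest on the same 3 controls, and the share of all tested genes that separate so is not given.

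**Figure D2:**
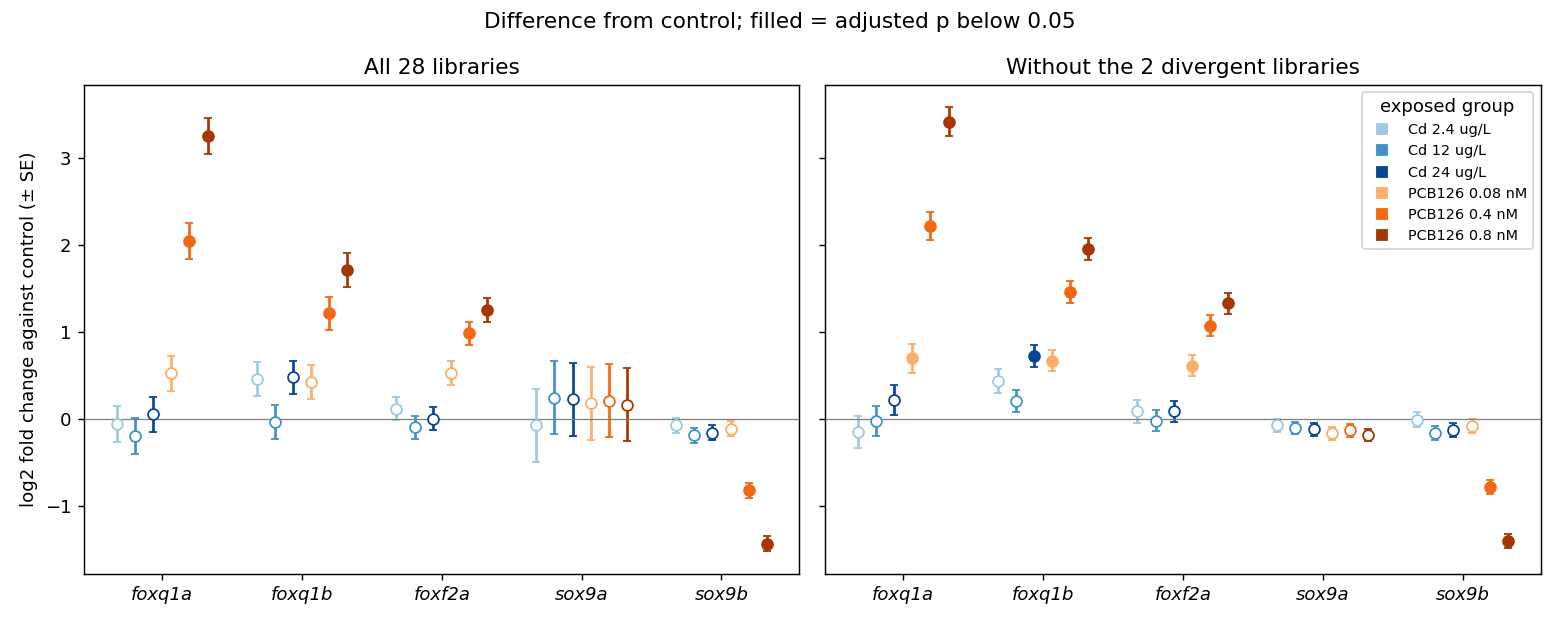
Log2 fold change against control with its SE (y axis) for each gene (x axis) in the 6 exposed groups, from all 28 libraries (left) and without the 2 divergent libraries (right); filled points have an adjusted p below 0.05. At PCB126 0.8 nM the left panel runs from 3.26 for foxq1a to -1.43 for sox9b, and the SE of sox9a shrinks from 0.42 to 0.07 on the right.

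At the lowest PCB126 dose the calls depended on the 2 divergent libraries. With all libraries, 0 of the 5 genes were called by edgeR at 0.08 nM, where 0.386% of all tested genes were called; 3 had an unadjusted p under 0.05 and DESeq2 called 1, foxf2a. The log2 fold changes were 0.53 (SE 0.20, adjusted p = 0.432) for foxq1a, 0.43 (SE 0.19, adjusted p = 0.535) for foxq1b and 0.53 (SE 0.14, adjusted p = 0.11) for foxf2a. With the replicate number as a block, foxf2a passed (adjusted p = 0.0446). When both divergent libraries were left out all 3 Fox genes were called, at 0.70 (SE 0.17, adjusted p = 0.0128), 0.67 (SE 0.12, adjusted p = 0.0025) and 0.61 (SE 0.12, adjusted p = 0.00439), where 7.83% of all tested genes were called. Leaving out any 1 library of the 8 compared, the divergent control included, called none of them, with adjusted p no lower than 0.163, 0.111 and 0.0513. The gene sox9b was not called at this dose in either fit, with log2 fold changes of -0.11 (SE 0.09) and -0.08 (SE 0.08). As a check of exposure, cyp1a, the classic AhR target, stood 12.0-fold above control at 0.08 nM and 151-fold at 0.8 nM. The gene ahr2, the main receptor of zebrafish dioxin responses, stood 2.35-fold above control at 0.8 nM with all libraries. It had 55.9 CPM in the divergent control, 108 to 117 CPM in the remaining 3 controls and 209 to 247 CPM at 0.8 nM. Of 9 tested AhR receptor and response genes, ahr2 and cyp1a among them, 6 were higher and 0 lower there, where 3.49% of all tested genes were called.

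Steps between PCB126 doses use no control library as an arm. Between 0.08 and 0.8 nM, 4 of the 5 genes were called, against 1.02% of all tested genes: foxq1a by 2.73 (SE 0.21), foxq1b by 1.29 (SE 0.19), foxf2a by 0.72 (SE 0.13) and sox9b by -1.32 (SE 0.09) on the log2 scale, with adjusted p from 5.48e-10 to 0.00391. From 0.4 to 0.8 nM, where 0.209% of genes were called, foxq1a rose by 1.21 (SE 0.19, adjusted p = 0.00268) and sox9b fell by 0.61 (SE 0.09, adjusted p = 0.00118). From 0.08 to 0.4 nM, where 0.390% were called, foxq1a rose by 1.52 (SE 0.20, adjusted p = 0.000126) and sox9b fell by 0.71 (SE 0.09, adjusted p = 8.91e-05). The steps of foxq1b and foxf2a did not pass: foxq1b had 0.50 (SE 0.19, adjusted p = 0.522) for the upper and 0.79 (SE 0.19, adjusted p = 0.0734) for the lower step, and foxf2a 0.27 (SE 0.13, adjusted p = 0.828) and 0.45 (SE 0.13, adjusted p = 0.246). Neither arm of these steps holds a divergent library, but each step comes from 1 fit whose spread is estimated over the libraries of all groups. In edgeR's fit without the pair foxq1b passed both steps (adjusted p = 0.012 and 9.42e-05) and foxf2a the lower one (adjusted p = 0.0202). There 2.44% and 2.77% of genes were called in the upper and lower step.

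As a linear slope over the 16 control and PCB126 libraries, the log2 level changed per nM by 4.02 (SE 0.22, adjusted p = 1.24e-08) for foxq1a, 2.05 (SE 0.21, adjusted p = 1.65e-05) for foxq1b, 1.37 (SE 0.18, adjusted p = 0.000211) for foxf2a and -1.84 (SE 0.11, adjusted p = 2.04e-08) for sox9b. The slope of sox9a was 0.13 (SE 0.40, adjusted p = 0.886). Of 24840 genes tested, 2.27% had a called slope. The slope of foxq1a had the smallest adjusted p of all genes, and that of sox9b ranked 5.

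With all libraries none of the 5 genes was called in Cd, while without the pair foxq1b was called at 24 ug/L. Against control, 0 of 15 values (5 genes at 3 doses) were called, with log2 fold changes from -0.20 to 0.48, where 0.922% of all tested genes were called at 24 ug/L, 0.173% at 12 ug/L and 0.0394% at 2.4 ug/L. DESeq2 also called 0 of them, and 3 had an unadjusted p under 0.05. Between Cd doses, 0 of 15 values were called by edgeR and 0 by DESeq2, and 2 had an unadjusted p under 0.05. Of all tested genes, edgeR called 0.520% for 24 against 2.4 ug/L, 0.00394% for 12 against 2.4 ug/L and 0% for 24 against 12 ug/L, where DESeq2 called 7 genes. Of the slopes on Cd dose over 24992 genes, 0 of the 5 and 0.344% of all were called with all libraries. None of the 5 had an unadjusted p under 0.05, and DESeq2 called 0. Without the pair edgeR called 0 of the 5 slopes, against 1335 of 25226 genes, but 2 had an unadjusted p under 0.05. The lowest adjusted p of these slopes was 0.0511, for foxq1b. Between Cd doses without the pair, 0 of 15 values were called and 3 had an unadjusted p under 0.05.

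The gene foxq1b at Cd 24 ug/L was called under 2 alternatives. It had 15.7, 19.1, 16 and 15.7 CPM there, above the 3 remaining controls (8.81 to 10.9 CPM), while the divergent control lay at 17.7 CPM. Its log2 fold change was 0.48 (SE 0.19, adjusted p = 0.295) with all libraries and 0.72 (SE 0.12, adjusted p = 0.000713) without the pair, where 5.08% of all tested genes were called. Limma on log2(TPM + 1) called it with all libraries, at 0.69 (SE 0.12, adjusted p = 0.0015). The median log2 fold change of all tested genes was 0.16 in that limma fit, against -0.02 in edgeR. In edgeR the paralog foxq1a had 0.05 (SE 0.20) with all libraries and 0.22 (SE 0.17) without the pair, and was not called. At Cd 2.4 ug/L foxq1b had 12.3, 13.5, 24.9 and 15.3 CPM, the third value from the divergent library, and the other 3 lay above the 3 remaining controls. Its log2 fold change there was 0.46 (SE 0.19, adjusted p = 0.845) with all libraries and 0.44 (SE 0.13, adjusted p = 0.231) without the pair. At Cd 12 ug/L foxq1b had 13.3, 9.45, 10.8 and 13.1 CPM, with a log2 fold change of -0.04 (SE 0.19, adjusted p = 0.95) with all libraries and 0.20 (SE 0.12, adjusted p = 0.644) without the pair.

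Set directly against Cd at the same dose rank, although the 2 chemicals' doses are not equivalent, PCB126 gave the same 4 calls. At 0.8 nM against Cd 24 ug/L, where 1.74% of all tested genes were called, foxq1a stood 3.2 (SE 0.21, adjusted p = 1.92e-10), foxq1b 1.24 (SE 0.19, adjusted p = 0.000253), foxf2a 1.25 (SE 0.14, adjusted p = 1.57e-06) and sox9b -1.28 (SE 0.09, adjusted p = 6.82e-10) apart on the log2 scale. At 0.4 nM against 12 ug/L, where 0.732% were called, the differences were 2.24 (SE 0.20), 1.25 (SE 0.19), 1.08 (SE 0.14) and -0.63 (SE 0.09), with adjusted p of at most 0.000431. At 0.08 nM against 2.4 ug/L none of the 5 was called by edgeR or DESeq2, 2 had an unadjusted p under 0.05, and 0.110% of genes were called. Leaving out the divergent libraries, foxq1a was called there, at 0.85 (SE 0.17, adjusted p = 0.0214), where 0.316% of genes were called.

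Per length, the order of the genes differed between groups. In the 3 control libraries that were not divergent, sox9a led with 67.4 ± 1.90 TPM (SD, n = 3), followed by sox9b at 27.6 ± 1.04, foxq1b at 15.8 ± 1.74, foxq1a at 15.8 ± 1.21 and foxf2a at 12.0 ± 0.838 TPM. The levels of foxq1b and foxq1a did not differ beyond their spread. At 0.8 nM foxq1a led with 165 ± 15.1 TPM (SD, n = 4), followed by foxq1b at 59.9 ± 7.25 and sox9a at 57.9 ± 2.46, whose ranges overlapped, then foxf2a at 29.5 ± 1.72 and sox9b at 10.2 ± 0.587 TPM. The gene sox9b thus moved from the second to the last place, and at 0.4 nM it was already last, at 15.5 ± 1.82 TPM. At Cd 24 ug/L foxq1b, at 25.0 ± 2.26 TPM, stood before sox9b, at 24.4 ± 1.42 TPM, a difference within their spread, and at Cd 2.4 and 12 ug/L the order was that of control.

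Ratios of 2 genes within a library do not depend on its scaling. The ratio of foxq1a to foxq1b, in counts per base, was 1.01, 1.1, 0.910 and 0.862 in the control libraries and 2.49, 2.63, 2.94 and 3.01 at PCB126 0.8 nM. It was 1.36, 1.77, 1.83 and 1.75 at 0.4 nM and 1.04, 1.08, 0.989 and 0.954 at 0.08 nM, so it left the control range at the 2 higher doses. The difference in mean log2 ratio was 1.52 at 0.8 nM and 0.79 at 0.4 nM, each with the smallest p that 4 against 4 libraries allow (exact two-sided permutation test, p = 0.0286, adjusted over 12 tests 0.0571).

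At Cd 2.4 and 24 ug/L the same ratio was lower than in control. It was 0.771, 0.541, 0.668 and 0.690 at Cd 2.4 ug/L and 0.686, 0.772, 0.550 and 0.810 at 24 ug/L, below all 4 controls in every library. At 12 ug/L it was 0.747, 1.12, 0.841 and 0.759, which overlapped with control. The mean log2 ratio differed from control by -0.54 at 2.4 ug/L and by -0.47 at 24 ug/L (exact permutation test, p = 0.0286 and adjusted p = 0.0571 in both), and by -0.17 at 12 ug/L (p = 0.286, adjusted p = 0.429). No ratio passed the adjusted threshold, and both chemicals were set against the same 4 control libraries.

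The ratio of sox9b to sox9a was 0.407, 0.425 and 0.399 in the first 3 controls and 3.53 in the divergent one. At PCB126 0.8 nM it was 0.180, 0.163, 0.168 and 0.193, and at 0.4 nM 0.290, 0.265, 0.246 and 0.245, below every control. At 0.08 nM it was 0.443, 0.386, 0.460 and 0.462, which overlapped with control. The mean log2 ratio differed from control by -2.0 at 0.8 nM and by -1.43 at 0.4 nM (exact two-sided permutation test, p = 0.0286, adjusted p = 0.0571 in both). Leaving out the divergent control, the differences were -1.22 and -0.66 (exact permutation test, p = 0.0571, the smallest that 4 against 3 libraries allow, adjusted p = 0.137). All Cd libraries but the divergent one, at 3.10, had ratios between 0.367 and 0.447.

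**Figure D3:**
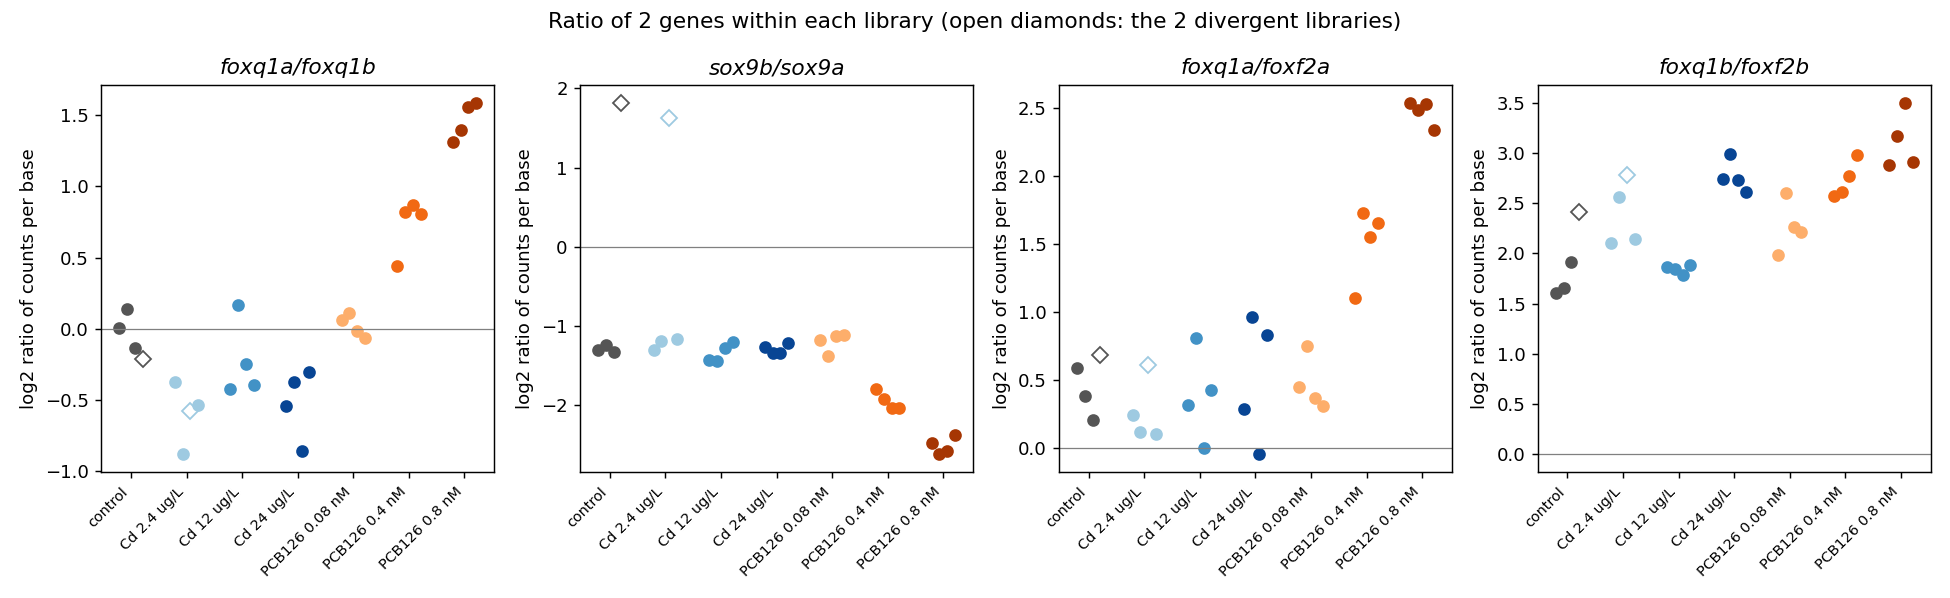
Log2 ratio of counts per base for 4 gene pairs within each library (y axis), by group (x axis); open diamonds are the 2 divergent libraries. The ratio of foxq1a to foxq1b rises by 1.52 and that of foxq1a to foxf2a by 2.01 on average at PCB126 0.8 nM, and the ratio of sox9b to sox9a stands apart at 1.82 and 1.63 in the divergent libraries.

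Both FoxQ1 genes head a short cluster transcribed in 1 direction. On chromosome 2, counting from the start of foxq1a, foxf2a starts 5.7 kb downstream, ftr93 (a finTRIM gene) 15 kb and foxc1a 33.1 kb downstream. On chromosome 20, foxf2b starts 6.1 kb and foxc1b 18.4 kb downstream of foxq1b. These neighbours were chosen for their position, after values of the data had been seen.

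In each cluster at PCB126 0.8 nM the FoxQ1 gene had the highest fold change, the FoxF2 gene the next, and the FoxC1 gene the lowest. At 0.08 nM this order did not hold on chromosome 2, where foxf2a and foxq1a both had 0.53 and foxc1a (0.17, SE 0.13) lay above ftr93 (-0.31, SE 0.38), none of them called. At PCB126 0.8 nM the log2 fold changes along chromosome 2 were 3.26 for foxq1a, 1.25 for foxf2a, 0.71 (SE 0.36, adjusted p = 0.307) for ftr93 and -0.36 (SE 0.13, adjusted p = 0.142) for foxc1a, a neural crest and vascular forkhead gene. Along chromosome 20 they were 1.71 for foxq1b, 0.55 (SE 0.16, adjusted p = 0.0604) for foxf2b and -0.04 (SE 0.14, adjusted p = 0.915) for foxc1b. With the divergent libraries left out foxf2b passed, at 0.57 (SE 0.16, adjusted p = 0.0248), and foxc1b changed sign to 0.16 (SE 0.07, adjusted p = 0.161). For foxc1a the slope on PCB126 dose was called, at -0.56 per nM (SE 0.14, adjusted p = 0.046), but its level did not fall at every dose. Its mean was 30.9 CPM in control (28.8 without the divergent library), 34.8 at 0.08 nM, 29.1 at 0.4 nM and 24.0 at 0.8 nM. The level of foxf2b was low, 3.86 to 4.93 CPM in control and 5.06 to 7.65 CPM at 0.8 nM, and ftr93 had at most 21 counts in any library.

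**Figure D4:**
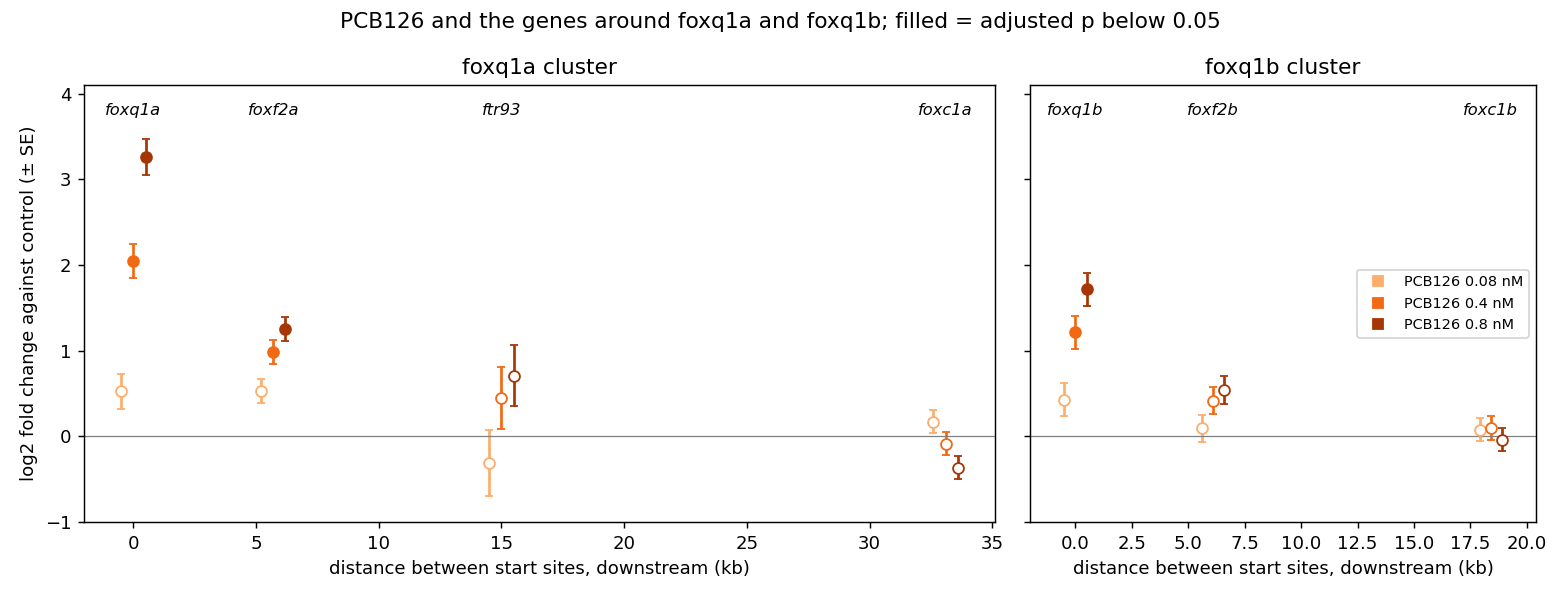
Log2 fold change against control with SE (y axis) at the 3 PCB126 doses for the genes of the foxq1a cluster (left) and the foxq1b cluster (right), placed by the distance of their start sites downstream of the FoxQ1 start (x axis, kb); filled points have an adjusted p below 0.05. Values at 0.8 nM go from 3.26 to 1.25, 0.71 and -0.36 on the left and from 1.71 to 0.55 and -0.04 on the right.

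The adjacent genes foxq1a and foxf2a did not rise by the same factor. Their ratio in counts per base was 1.5, 1.30, 1.15 and 1.60 in control, 2.15, 3.32, 2.94 and 3.15 at PCB126 0.4 nM, and 5.82, 5.62, 5.78 and 5.07 at 0.8 nM. The mean log2 ratio was 2.01 above control at 0.8 nM (exact permutation test, p = 0.0286, adjusted p = 0.0686 over the 12 tests of this and the foxq1b to foxf2b ratio). The ratio of foxq1b to foxf2b was 3.04, 3.15, 3.78 and 5.34 in control, 7.38, 8.96, 11.3 and 7.51 at PCB126 0.8 nM, 5.95, 6.12, 6.83 and 7.87 at 0.4 nM, and 6.67, 7.92, 6.64 and 6.09 at Cd 24 ug/L. All 3 exposed groups lay above every control (exact permutation test, p = 0.0286, adjusted p = 0.0686 in each). Both ratios were added after values had been seen.

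Of 47 other Fox genes tested, 3 were higher and 4 lower at PCB126 0.8 nM, where 3.49% of all tested genes were called. Their median log2 fold change was 0.04, which turned to -0.05 without the pair, against -0.01 over all tested genes in both fits. The risers were foxo1a (1.16, SE 0.10), a forkhead factor restrained by insulin signalling, foxg1d (0.72, SE 0.14) and foxo4 (0.32, SE 0.09). The 4 that fell were foxd3 (-0.60, SE 0.14), a neural crest specifier, foxg1b (-0.54, SE 0.09), a forebrain gene, foxn4 (-0.52, SE 0.12), a retinal progenitor gene, and foxm1 (-0.43, SE 0.12), a cell cycle regulator. The gene foxo1a was also called at Cd 24 ug/L (0.91, SE 0.10) and at Cd 12 ug/L (0.75, SE 0.10). With all libraries edgeR called none of the 5 genes in either group.

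Of 21 other Sox genes, 1 was higher (sox19b, 0.60, SE 0.10) and 1 lower (sox4b, -0.45, SE 0.08) at PCB126 0.8 nM, where 3.49% of all tested genes were called. Their median log2 fold change was -0.13. In the fit without the divergent libraries 1 was higher and 3 were lower there, sox11b and sox12 at -0.39 and -0.38 beside sox4b. Of the other Fox genes 7 of 48 were higher and 4 lower in that fit, where 8.73% of all tested genes were called. At Cd 24 ug/L the other Sox genes had 0 called with all libraries, where 0.922% of all tested genes were called. Without the pair 8 of 21 were lower, with a median of -0.18, where 5.08% of all tested genes were called. Among the 8 were sox19a (-0.41, SE 0.11), sox12 (-0.39, SE 0.07), sox14 (-0.33, SE 0.08) and sox21b (-0.27, SE 0.07).

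**Figure D5:**
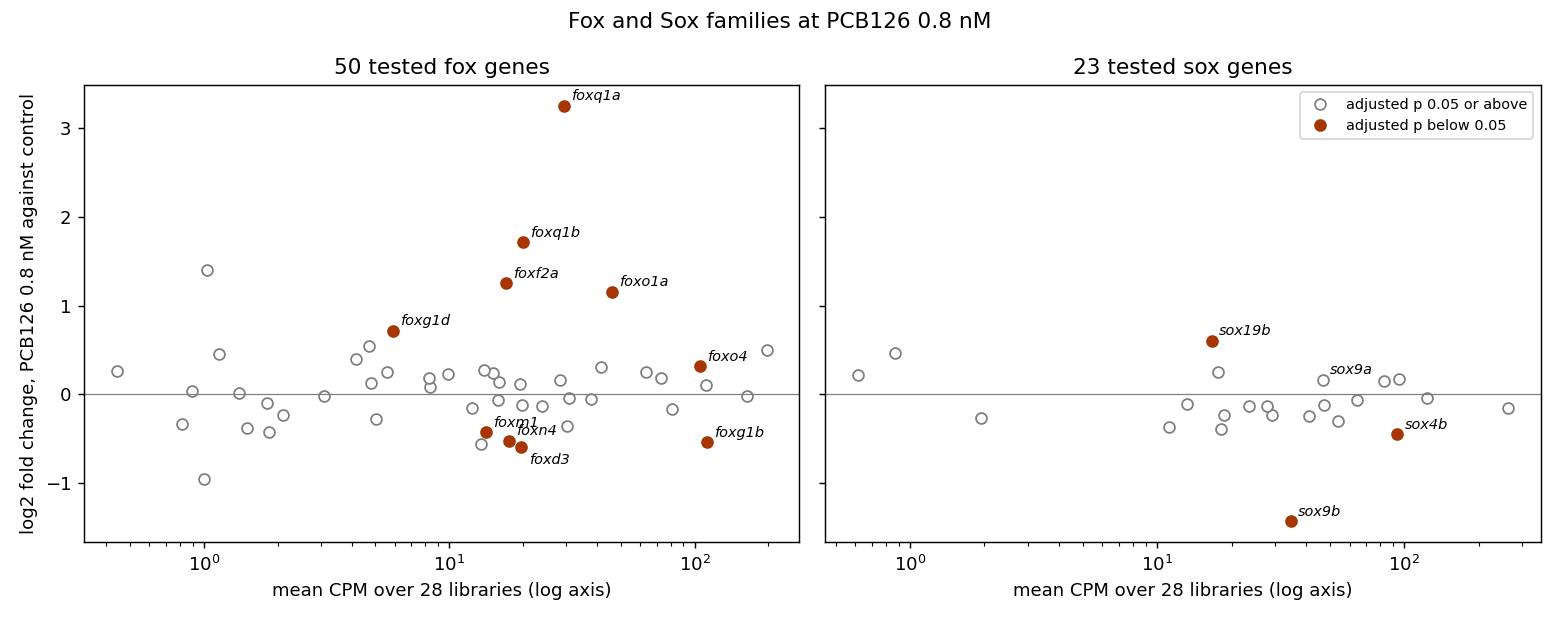
Log2 fold change at PCB126 0.8 nM against control (y axis) against mean CPM over 28 libraries (x axis, log) for the 50 tested Fox genes (left) and 23 tested Sox genes (right); filled points have an adjusted p below 0.05. The genes foxq1a at 3.26 and foxq1b at 1.71 lie above all other Fox genes, and sox9b at -1.43 lies below all other Sox genes.

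Cartilage genes, the best known targets of Sox9, fell at the top PCB126 dose. Of 26 tested genes of cartilage matrix and chondrocytes, 10 were lower and 1 higher at 0.8 nM, where 3.49% of all tested genes were called. Their median log2 fold change was -0.36. The cartilage list was chosen with earlier results of these data known, so its share called is a description and not a test. Among the called were cnmd (-0.94, SE 0.21), encoding the cartilage protein chondromodulin, and the collagen IX chains col9a3 (-0.81, SE 0.15), col9a1a (-0.73, SE 0.11) and col9a2 (-0.71, SE 0.12). The 1 that rose was ctgfa (0.68, SE 0.14), a growth factor gene also expressed outside cartilage. Leaving out the divergent libraries, 14 were lower and 2 higher, where 8.73% of all tested genes were called.

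At PCB126 0.4 nM, where sox9b was called lower, 0 of the 26 cartilage genes were called with all libraries (median -0.16). Of all tested genes 1.00% were called there, so a count of 0 in 26 is near that share. Without the divergent libraries 2 were lower and 1 higher, where 3.57% of all tested genes were called. The summed level of the list was 6871 to 7989 CPM in control, 6214 to 6774 CPM at 0.4 nM and 4822 to 6227 CPM at 0.8 nM, so the top 2 doses lay below control. It was 7102 to 7800 CPM at 0.08 nM and 5969 to 7724 CPM over the Cd groups. The part of cartilage amount in the fall of sox9b was not tested.

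Of 13 tested bone genes, 1 was higher (runx3, 0.48, SE 0.12, a skeletal and blood regulator) and 1 lower (col10a1a, -0.50, SE 0.10) at PCB126 0.8 nM, against 3.49% called of all tested genes. The median log2 fold change of the bone list was -0.25 with all libraries and -0.10 without the pair. Of 58 tested craniofacial and neural crest regulators, 5 were higher and 3 lower, with a median of -0.05 that turned to 0.03 without the pair. The risers included tfap2c (0.73, SE 0.13), msx2b (0.68, SE 0.16), dlx3b (0.67, SE 0.13) and jag1b (0.53, SE 0.12), known from ectoderm or pharyngeal arch patterning. Those that fell were osr1 (-1.08, SE 0.18), a gene of mesenchyme and kidney progenitors, foxd3 (above) and pou3f3a (-0.35, SE 0.09). With the divergent libraries left out 12 of 60 were higher and 4 lower, where 8.73% of all tested genes were called.

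Lists of other cells that express these genes were first read with all libraries, against the 3.49% called of all tested genes. Of 11 radial glia genes, a cell type in which sox9 is expressed in the zebrafish brain, 2 were lower at PCB126 0.8 nM (fabp7a, -0.95, SE 0.26, and rlbp1a, -0.71, SE 0.19). Their summed level, 2725 to 3124 CPM, overlapped with the 2662 to 4185 CPM of control. Of 10 mural cell genes, 1 was lower (tagln, -1.11, SE 0.31, adjusted p = 0.0498), with sums of 613 to 676 CPM against 709 to 1038 CPM in control. Low mural sums were not particular to this group. At Cd 24 ug/L they were 656 to 692 CPM, at 12 ug/L 700 to 750 CPM and at 2.4 ug/L 655 to 886 CPM. At PCB126 0.08 nM they were 660 to 712 CPM and at 0.4 nM 674 to 712 CPM. In the fit without the divergent libraries 2 radial glia genes were higher and 2 lower, and 3 mural genes were lower, where 8.73% of all tested genes were called. Values of fabp7a, rlbp1a and tagln in that fit are not given here. Each had a maximum over the 28 libraries far above its median. For fabp7a these were 591 and 214 CPM, for rlbp1a 45.4 and 22.1 CPM, and for tagln 212 and 62.2 CPM. Of the 11 whole-larva markers, rho (-0.93, SE 0.22) and the heart muscle gene myl7 (-0.91, SE 0.21) were lower with all libraries. The median log2 fold change of these markers was -0.50 and turned to 0.07 without the pair, where 2 were lower and 0 higher. Their summed level in control ran from 7656 to 18102 CPM, against 6462 to 7968 CPM at PCB126 0.8 nM. For the radial glia, mural and whole-larva lists alike, the highest sums were in control and Cd 2.4 ug/L. These are the 2 groups that hold a divergent library. The whole-larva sum reached 15618 CPM at Cd 2.4 ug/L and at most 10101 CPM, at PCB126 0.08 nM, in the groups without one. Sums without the pair are not given here. The part of these cell types in the results was not tested.

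The genes whose log2 CPM followed each of the 5 most closely over 28 libraries, among 13736 candidates, are given as Pearson's r without a test, since the 4 libraries of a group share their exposure and 2 libraries stand apart. The names depend on the measure: by Spearman's rank correlation cyp1c2 came at rank 38 for foxq1a, and the first 3 for sox9b were osr1, col9a1a and cnmd. By Pearson's r those for foxq1a were cyp1c2 (0.98), an AhR-induced cytochrome P450 gene, cyb5a (0.96) and nt5c2l1 (0.96). For foxq1b they were cyb5a, cyp3a65 and foxq1a (each 0.93), and for foxf2a cyp1a (0.95), cyp1c1 (0.95) and the glycogen phosphorylase gene pygl (0.93). For sox9b they were fhl5 (0.90), the cartilage proteoglycan gene epyc (0.90) and f13a1b (0.89).

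For sox9a they were chst7, ppp2ca and ago4 (each 0.99), and these rested on the 2 divergent libraries: without them r was 0.55, 0.23 and 0.58. Among the 5 genes, r between foxq1a and sox9b was -0.95 (-0.96 without the pair), between foxq1a and foxf2a 0.92 (0.93), and between sox9a and sox9b -0.14 (0.41).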

How the data were processed

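The deposited table holds raw read counts per gene, not normalised, and the authors' TPM values scale counts by gene length and library. HISAT2 2.0.5, featureCounts 1.5.0-p3 and GRCz11 appear in the submitters' processing notes; the annotation release is not given in the sources used here. All per-sample columns were mapped to samples by name. The test was edgeR's two-sided quasi-likelihood test (version 4.0.16, under R 4.3.3) with filterByExpr, TMM scaling, 1 mean per group over 28 libraries, 21 residual degrees of freedom and Benjamini-Hochberg adjustment, checked on simulated data. Slopes used 16 libraries per chemical. SE is the size of the log2 fold change divided by the root of F. Ratios add 0.5 to each count. Totals per library limit precision, and reads without molecular identifiers are not independent molecules.

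Alternatives were DESeq2 1.42.0, its size factors, other filters, limma 3.58.1 on log2(TPM + 1), a 1.5-fold threshold, only the groups compared, a replicate block and omission of single libraries; omission of the divergent pair was added once the data had been seen. The 5 genes and the lists were chosen with earlier results of these data known. Named are the 5 genes, the 3 genes most like each (mean log2 CPM of at least 1, prior count 2), up to 4 called genes of a list per direction, cyp1a and ahr2. Of the listed genes, 8 matched no symbol used here, among them the noncoding RNA slincr, and 12 were below the filter.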

Additional observations from a re-analysis of the deposited data

Results flagged for a closer look

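In 3 of 35 groups of 4 libraries (5 genes in 7 groups), 1 library lay far from the other 3 relative to the group's range, a distance that chance gives in about 1 in 20 groups. At PCB126 0.8 nM, replicate 3 was the highest for foxq1a, with 117 CPM against 96.8 to 99.9 CPM. At Cd 24 ug/L, replicate 2 was the highest for foxq1b, with 19.1 CPM against 15.7 to 16 CPM. In control, replicate 4, a divergent library, was the lowest for sox9a, with 6.75 CPM against 52.3 to 56.2 CPM. The cause was not tested.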

How the results depend on the processing

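Leaving out any 1 library of the groups compared neither ended nor added a call of the 5 genes. Under the other settings, outside the Cd dose steps and Cd slope, 524 values of the 5 genes kept their direction and side of the threshold, 17 lost and 19 gained a call, and 20 changed sign; no value that was called changed sign. The causes were not tested. The lost calls came from the 1.5-fold threshold, a stricter question, except foxq1b at PCB126 0.4 nM with only the groups compared (adjusted p = 0.119) and sox9b under limma on TPM at 0.4 nM (0.227), for 0.8 against 0.4 nM (0.442), for 0.4 against 0.08 nM (0.284) and for 0.4 nM against Cd 12 ug/L (0.22). Against a 1.5-fold threshold, the genes called numbered 1 at PCB126 0.4 nM, 2 for 0.8 against 0.08 nM, 0 for 0.8 against 0.4 nM, 1 for 0.4 against 0.08 nM and 1 for 0.4 nM against Cd 12 ug/L. At PCB126 0.08 nM against control, 1 was called with DESeq2, 1 with limma on TPM and 3 without the divergent pair, and for 0.4 against 0.08 nM 4 were called with only the groups compared, with DESeq2 and without the pair. For 0.8 against 0.4 nM foxq1b gained a call with only the groups compared (0.0383) and without the pair (0.012), and limma on TPM called 1 gene. Limma on TPM and the omission of the pair each called 1 for Cd 24 ug/L and 1 for PCB126 0.08 nM against Cd 2.4 ug/L.

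Sign changes under limma on TPM were 0.026 for sox9b at 0.08 nM, 0.073 for sox9a between 0.8 and 0.08 nM, 0.047 for sox9b at Cd 24 ug/L, 0.038, 0.20, 0.11 and 0.027 for foxq1a, foxq1b, foxf2a and sox9b at Cd 12 ug/L, and 0.20 and 0.16 for foxq1b and sox9b at 0.08 nM against Cd 2.4 ug/L. The median of all genes under limma on TPM was 0.099 at 0.08 nM, 0.16 at Cd 24 ug/L and 0.17 at Cd 12 ug/L. It was 0.068 for 0.8 against 0.08 nM and 0.15 for 0.08 nM against Cd 2.4 ug/L. Without the pair sox9a had -0.18, -0.13 and -0.17 at 0.8, 0.4 and 0.08 nM, a slope of -0.14, -0.12 and -0.11 at Cd 24 and 12 ug/L, and -0.094 for 0.08 nM against Cd 2.4 ug/L. Also without the pair, foxq1b had 0.20 at Cd 12 ug/L and 0.23 for 0.08 nM against Cd 2.4 ug/L, the sox9b to sox9a ratio 0.090 at 0.08 nM, and the foxq1b to foxf2b ratio 0.12 at Cd 12 ug/L. For foxf2a at Cd 24 ug/L the value was -0.015 without a filter and -0.0088 with a mean of 10 counts. Of the Cd dose steps and the Cd slope, none was called under these settings or single omissions; 9 and 5 values changed sign under the settings and 14 and 3 under the omissions.

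Over single omissions sox9a ran from -0.19 to 0.32 at 0.8 nM, from -0.14 to 0.37 at 0.4 nM, from -0.17 to 0.34 at 0.08 nM and from -0.14 to 0.21 as a slope, lowest each time without control replicate 4. It ran from -0.13 to 0.38 at Cd 24 ug/L, from -0.11 to 0.40 at 12 ug/L and from -0.42 to 0.27 at 2.4 ug/L. Between exposed groups it ran from -0.074 to 0.018 for 0.4 nM against Cd 12 ug/L, from -0.094 to 0.47 for 0.08 nM against Cd 2.4 ug/L, from -0.050 to 0.020 for 0.8 against 0.08 nM and from -0.010 to 0.081 for 0.4 against 0.08 nM. At Cd 24 ug/L foxq1a ran from -0.080 to 0.22 and foxf2a from -0.060 to 0.081, at 12 ug/L foxq1b from -0.16 to 0.21, and at 2.4 ug/L foxq1a from -0.31 to 0.11. For 0.08 nM against Cd 2.4 ug/L foxq1b ran from -0.15 to 0.23 and sox9b from -0.070 to 0.0038. The log2 ratio of sox9b to sox9a ran from -0.71 (without replicate 3 of Cd 2.4 ug/L) to 0.78 (without control replicate 4) at Cd 2.4 ug/L and from -0.96 to 0.090 at PCB126 0.08 nM.

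Deviations of same-numbered libraries from their group means correlated between -0.65 and 0.59, with a median near 0. Those of differently numbered libraries correlated between -0.72 and 0.85, also with a median near 0. Whether equal numbers share a clutch or batch was not tested. With the replicate block, 1 gene, foxf2a, was called at PCB126 0.08 nM (adjusted p = 0.0446). At 0.8 nM 887 genes were called in all, 97 against a 1.5-fold threshold, 111 with only the groups compared, 1500 with DESeq2 and 2237 without the pair. Limma on TPM called 621 higher and 152 lower, against 514 and 373, and moved the median of all genes to 0.18 from -0.01 on the log2 scale; sox9a lay at 0.72 and sox9b at -1.14 in that fit.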
